A study of Homo sapiens with 40 samples.

Results

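The ERBB receptor family comprises EGFR, ERBB2, ERBB3 and ERBB4, the human receptor tyrosine kinases that bind epidermal growth factor (EGF), heregulin (HRG, a form of neuregulin 1) and related ligands. Its members were taken by gene name from the deposited table and were 4 of 44584 genes, each with 1 row. EGFR binds EGF and its relatives, ERBB3 and ERBB4 bind heregulins, and ERBB2 has no known soluble ligand but is the preferred partner of the other receptors. Ligand binding lets the receptors pair, the kinase of one partner phosphorylates the tail of the other, and adaptors carry the signal to the RAS-ERK and PI3K-AKT pathways. ERBB3 has little kinase activity of its own and recruits PI3K strongly when it is paired with ERBB2.

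RNA was sequenced from BT474, a breast ductal carcinoma line with amplified ERBB2 that is sensitive to trastuzumab, an antibody against ERBB2, and from BT474R, 1 resistant clone that was derived from BT474 by growth in trastuzumab. Both lines were kept overnight in low serum. Each line was sampled at baseline (T0) and again at 3 times, 1 h, 12 h or 24 h, into treatment with water as the vehicle, with EGF at 50 ng/mL or with HRG at 10 ng/mL, which gave 20 groups of 2 libraries. The questions were how the receptor levels differed between the sensitive and the resistant line and how either ligand changed them over time. BT474R stands for resistance by 1 clone only, so that clone and resistance cannot be told apart, and the treatments were run in duplicate on plated wells per the study's methods. Whether the duplicates were cultures started independently is not given in the sources used here, so the p-values measure the spread between these libraries, which may be technical.

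Library totals ran from 16794594 to 33387936 counts. All 8 luminal epithelial markers that were checked averaged at least 1 CPM (for the markers, read counts scaled to the raw total of the library) in both lines. The luminal factor GATA3 averaged 459 CPM in BT474 and 34.5 CPM in BT474R. The basal list summed to 10.1 to 14.8 CPM in BT474 and to 2.71 to 6.15 CPM in BT474R, mainly from TP63 and MYLK in BT474, while the basal keratins KRT5 and KRT14 reached at most 2.42 CPM in any library. Of the markers of other cell types, the fibroblast list summed to 74.8 to 112 CPM in BT474 and to 163 to 283 CPM in BT474R, nearly all of it COL1A1, while the other 5 genes of that list averaged below 1 CPM. The leukocyte list summed to 1.31 to 5.14 CPM and the endothelial list to 9.71 to 25.9 CPM, the latter mainly VWF. COL1A1 averaged 92.1 CPM in BT474 and 207 CPM in BT474R, and its part in the line differences of the receptors was not tested. No copy rows of the members were found. EGFR overlaps the antisense gene EGFR-AS1, which had 1 to 69 counts per library, and how strand was treated in counting is not given in the sources used here.

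EGFR lies on chromosome 7 from 55019017 to 55211628 on the plus strand of GRCh38, ERBB2 on chromosome 17 from 39687914 to 39730426 on the plus strand, ERBB3 on chromosome 12 from 56076799 to 56103505 on the plus strand, and ERBB4 on chromosome 2 from 211375717 to 212538841 on the minus strand. The canonical transcripts of GENCODE release 44 measure 9905, 4557, 5615 and 12097 bases in that order, with 28, 27, 28 and 28 exons and coding regions of 3630, 3765, 4026 and 3924 bases.

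The promoters of the 2 members whose RNA moved most, EGFR between the lines and ERBB4 with ligand, are shown to give the sequence context of those changes. They are RefSeq sequences on GRCh38.p14, where 3 of the 4 members had an entry, and are written 5′ to 3′ on the strand of the gene and end where the first exon of the GENCODE transcript begins, chr7:55018767-55019016 on the plus strand for EGFR (the upstream one of its RefSeq starts) and chr2:212538842-212539052 on the minus strand for ERBB4. Capitals mark matches on either strand to the motifs that were searched.
EGFR promoter: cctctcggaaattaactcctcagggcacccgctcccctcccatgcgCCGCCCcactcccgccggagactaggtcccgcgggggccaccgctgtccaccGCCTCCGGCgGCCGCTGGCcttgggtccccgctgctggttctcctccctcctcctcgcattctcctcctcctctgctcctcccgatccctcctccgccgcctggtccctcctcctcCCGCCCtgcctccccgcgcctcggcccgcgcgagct
ERBB4 promoter: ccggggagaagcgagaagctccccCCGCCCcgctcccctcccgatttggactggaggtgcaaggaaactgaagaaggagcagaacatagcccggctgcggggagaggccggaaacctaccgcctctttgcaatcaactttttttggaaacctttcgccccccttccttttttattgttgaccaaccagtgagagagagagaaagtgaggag
The motifs searched were the GC box GGGCGG, the AP-2 motif GCCNNNGGC, the EGR motif GCGNGGGCG, the TATA box TATAAA, the forkhead motif GTAAACA and the AP-1 motif TGANTCA. The EGFR window held 2 GC boxes, at 204 and 36 bases before the start, and 2 AP-2 motifs, at 152 and 142 bases before it, none of which overlapped another. The ERBB4 window held 1 GC box, at 226 bases before the RefSeq start, and none of the other 5 motifs. Among 35116 RefSeq promoters, the 250 bases before the start held a GC box in 42.6% and an AP-2 motif in 19.8%. The G and C content of these 250 bases was 73.6% for EGFR and 57.2% for ERBB4, against a median of 58% over all promoters.

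At baseline the lines shared a very high level of ERBB2 and differed most in EGFR and ERBB4. The CPM of the receptors are read counts scaled to 1 common library size by TMM. ERBB2 had 8140 and 7944 CPM in the 2 BT474 libraries and 9463 and 9167 CPM in the 2 BT474R libraries, and over all 40 libraries it ranked between 2 and 5 among all genes by count and took 0.612% to 0.996% of the counts. EGFR had 71.3 and 61.8 CPM in BT474 and 658 and 701 CPM in BT474R. All BT474R libraries were far above all BT474 libraries in EGFR, without overlap at any time or treatment. ERBB3 had 280 and 272 CPM in BT474 and 349 and 341 CPM in BT474R. ERBB4 went the other way, with 36.0 and 35.2 CPM in BT474 and 11.2 and 11.7 CPM in BT474R. The raw counts behind the ERBB4 levels were 931 and 719 in BT474 and 187 and 250 in BT474R. In such bulk samples, fewer cells with a receptor and less RNA of it per cell cannot be told apart.

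In BT474R against BT474 at T0, all 4 members passed the test (edgeR's quasi-likelihood test, Benjamini-Hochberg adjusted over all genes), 3 higher and 1 lower. Of all 24641 genes tested in that comparison 46.9% passed, so that a call on its own sets a gene little apart from the rest and the size carries the comparison. EGFR was 10.2-fold higher, by 3.35 on the log2 scale (SE 0.0978, edgeR adjusted p = 5.44e-26). ERBB4 fell to 32.3% of its BT474 level, by 1.63 on the log2 scale (SE 0.0924, edgeR adjusted p = 1.74e-17). ERBB2 was 1.16-fold higher (log2 0.21, SE 0.0381, edgeR adjusted p = 1.27e-05) and ERBB3 1.25-fold higher (log2 0.32, SE 0.0499, edgeR adjusted p = 1.09e-06). These 2 small differences were at the upper end of what the scalings gave. With other scalings, filters and sets of libraries that of ERBB2 was between 0.16 and 0.21 and that of ERBB3 between 0.27 and 0.32, and all of these passed.

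The line difference was seen again in the vehicle groups. At 1 h and at 12 h all 4 members passed in the T0 direction, among 50.2% and 49% of all genes, and at 24 h 3 of 4 passed, among 49.3%. The log2 difference of EGFR was 3.45 at 1 h, 3.06 at 12 h and 3.44 at 24 h. That of ERBB3 was 0.46, 0.36 and 0.34, and that of ERBB4 was -1.57, -1.62 and -1.17. ERBB2 was the exception at 24 h. Its vehicle libraries had 6849 and 7107 CPM in BT474 and 7081 and 7262 CPM in BT474R, which overlapped, and the log2 difference of 0.04 (95% interval -0.04 to 0.12) did not pass.

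**Figure D1:**
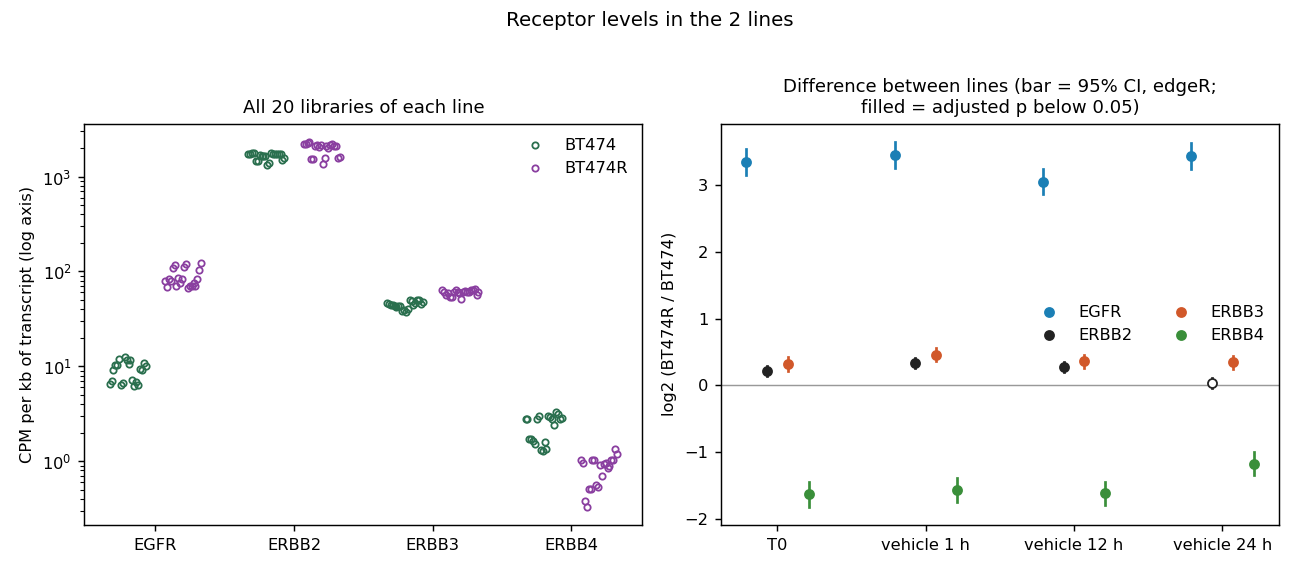
Receptor levels in both lines. Left, CPM per kb of transcript on a log axis, 1 point per library (20 per line). Right, the log2 ratio of BT474R to BT474 at T0 and in vehicle at 1, 12 and 24 h, with 95% intervals from edgeR and filled points for an adjusted p below 0.05. EGFR is 3.06 to 3.45 above 0 and ERBB4 1.17 to 1.63 below 0 at every time. ERBB3 is 0.32 to 0.46 above 0 and ERBB2 0.04 to 0.34 above 0, the latter not filled at 24 h.

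Levels of different receptors were compared only per length, as CPM per kb of the canonical transcript. Per kb the order was ERBB2, ERBB3, EGFR, ERBB4 in all 20 BT474 libraries and ERBB2, EGFR, ERBB3, ERBB4 in all 20 BT474R libraries, and it was the same per kb of coding sequence. At T0, ERBB2 made up 96.8% ± 0.04 (SD, n = 2) of the summed receptor RNA per kb in BT474, ERBB3 2.70% ± 0.0098, EGFR 0.368% ± 0.031 and ERBB4 0.161% ± 0.00018. In BT474R the shares were 94.0% ± 0.22 for ERBB2, 3.16% ± 0.21 for EGFR, 2.83% ± 0.013 for ERBB3 and 0.0436% ± 0.0022 for ERBB4. EGFR and ERBB3, the third and second receptor of BT474, were thus close to each other in BT474R at T0 per kb of transcript. They were less close per kb of coding sequence, where the mean ratio of EGFR to ERBB3 at T0 was 2.18. In BT474R vehicle at 24 h that ratio was 1.92 per kb of transcript.

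As ratios per kb at T0, ERBB2 stood to EGFR as 248 and 280 to 1 in the 2 BT474 libraries and as 31.3 and 28.4 to 1 in the 2 BT474R libraries. ERBB2 to ERBB3 changed little, from 35.8 and 36.0 in BT474 to 33.4 and 33.1 in BT474R. ERBB3 to ERBB4, the 2 receptors of heregulin, was 16.8 and 16.7 in BT474 and 67.0 and 62.8 in BT474R. EGFR to ERBB3 was 0.144 and 0.129 in BT474 and 1.07 and 1.16 in BT474R, and per kb of coding sequence its means were 0.267 and 2.18. Because the length used for each gene is that of 1 transcript, ratios between genes depend on it, while the change of a ratio between lines or treatments does not.

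All 6 ratios differed between the lines over T0 and the 3 vehicle times, in the same direction at 4 of 4 times (exact permutation test of line labels within each time, two-sided, p = 0.00154, the smallest that its 1296 permutations can give, adjusted p = 0.00772 over 30 tests of ratios). EGFR to ERBB4 differed most, by 4.82 on the log2 scale on average over the 4 times. EGFR to ERBB2 was 3.11 and EGFR to ERBB3 2.95 higher in BT474R. ERBB3 to ERBB4 was 1.87 and ERBB2 to ERBB4 1.72 higher, and ERBB2 to ERBB3 fell by 0.16. The 6 ratios are built from 4 genes and are not independent results, and the p they share does not rank them.

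Without ligand, EGFR rose with time and ERBB2 was lower at 24 h only. In BT474 vehicle the EGFR level was 68.3 and 63.4 CPM at 1 h, 92.9 and 89.6 CPM at 12 h and 106 and 100 CPM at 24 h. In BT474R vehicle it was 695 and 744 CPM at 1 h, 699 and 818 CPM at 12 h and 1021 and 1212 CPM at 24 h. Both lines were thus highest at 24 h, and in BT474R the 24 h libraries did not overlap the earlier ones.

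Against T0, EGFR passed in BT474 at 12 h (log2 0.45, SE 0.0668, edgeR adjusted p = 8.7e-06) and at 24 h (log2 0.63, SE 0.0669, edgeR adjusted p = 5.03e-09) and in BT474R at 24 h (log2 0.73, SE 0.0942, edgeR adjusted p = 2.49e-05). ERBB2 fell by 0.20 in BT474 (SE 0.0249) and by 0.37 in BT474R (SE 0.0453) at 24 h on the log2 scale. Before that, at 1 h and 12 h, its changes were -0.01 and -0.03 in BT474. In BT474R they were 0.10 and 0.05, and none of these passed. ERBB4 rose by 0.42 in BT474R vehicle at 24 h (edgeR adjusted p = 0.013), from 11.2 and 11.7 CPM to 16.1 and 14.3 CPM. In BT474 0, 1 and 2 of 4 members passed at 1, 12 and 24 h, among 6.61%, 6.41% and 11.4% of all genes, and in BT474R 0, 0 and 3 of 4 passed, among 2.24%, 1.13% and 13.7%. For the 8 tests at 1 h, 3 had an unadjusted p under 0.05 and DESeq2 called 0, and at 12 h in BT474R no member had an unadjusted p under 0.05 and DESeq2 called 0.

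The effect of the ligands was therefore read against the vehicle of the same time. The clearest response of the family was the loss of ERBB4, a receptor of heregulins whose RNA fell with both ligands in both lines from 12 h. ERBB3 and ERBB2 fell a little in BT474, while their changes in BT474R did not pass. EGFR rose only with HRG at 12 h in BT474.

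At 1 h none of the 16 tests of a member passed with edgeR, 2 had an unadjusted p under 0.05, and DESeq2 called 0. At that time 2.19% of all genes passed with EGF in BT474, 2.77% with HRG in BT474, 0.457% with EGF in BT474R and 0.169% with HRG in BT474R. The members' 1 h log2 fold changes ran from -0.07 for ERBB2 and ERBB3 in HRG-BT474 to 0.24 for ERBB4 in HRG-BT474R. ERBB4 at 1 h had 33.8 and 29.3 CPM in BT474 vehicle, 33.4 and 33.8 CPM with EGF and 33.9 and 36.5 CPM with HRG. Its 1 h libraries in BT474R had 10.4 and 10.8 CPM in vehicle, 12.6 and 11.7 CPM with EGF and 12.5 and 12.5 CPM with HRG, so that the ligand libraries lay above vehicle there, by less than the test could call.

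At 12 h in BT474, ERBB4 had 39.5 and 37.8 CPM with vehicle, 20.8 and 20.6 CPM with EGF and 15.9 and 15.6 CPM with HRG. In BT474R it had 12.6 and 12.6 CPM with vehicle, 4.63 and 4.02 CPM with EGF and 6.73 and 6.43 CPM with HRG. No treated library overlapped vehicle, and the ligand with the lower ERBB4 was HRG in BT474 and EGF in BT474R. The lowest raw counts of ERBB4 in the series, 118 and 86, were those of EGF-BT474R at 12 h.

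In EGF-BT474 at 12 h ERBB4 was at 53.0% of vehicle, a log2 change of -0.92 (SE 0.0762, edgeR adjusted p = 9.61e-12), and in HRG-BT474 at 39.8%, a log2 change of -1.33 (SE 0.0772, edgeR adjusted p = 1.78e-16). In EGF-BT474R it was at 34.6%, a log2 change of -1.53 (SE 0.123, edgeR adjusted p = 1.19e-08), and in HRG-BT474R at 51.8%, a log2 change of -0.95 (SE 0.113, edgeR adjusted p = 1.52e-05). The reduction was still present at 24 h, when the log2 change was -0.85 in EGF-BT474, -0.97 in HRG-BT474, -1.30 in EGF-BT474R and -0.63 in HRG-BT474R. In BT474R at 24 h the libraries had 16.1 and 14.3 CPM with vehicle, 6.19 and 6.14 CPM with EGF and 10.9 and 8.54 CPM with HRG. HRG-BT474R at 24 h was the least firm of these, since without the first vehicle library its change of -0.55 no longer passed, nor did it pass when only the 2 groups compared were fitted.

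ERBB3, the other heregulin receptor, fell with both ligands in BT474. At 12 h it had 279 and 282 CPM with vehicle, 251 and 251 CPM with EGF and 217 and 218 CPM with HRG, with no overlap between the 3 groups. The log2 change was -0.18 in EGF-BT474 (SE 0.0376, edgeR adjusted p = 0.000721) and -0.39 in HRG-BT474 (SE 0.0376, edgeR adjusted p = 9.21e-11). After 24 h it was -0.12 and -0.27. In BT474R the 4 changes of ERBB3 at 12 h and 24 h lay between -0.15 and -0.06 and did not pass. With EGF the 95% intervals lay below 0 (-0.27 to -0.03 at 12 h, -0.25 to -0.008 at 24 h). With HRG they held 0 (-0.23 to 0.015 and -0.18 to 0.07). The ligand libraries lay below vehicle without overlap, except with HRG at 24 h. Between the lines the EGF effect on ERBB3 differed by 0.01 at 12 h and -0.01 at 24 h, which did not pass.

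ERBB2 moved by small steps. In BT474 it fell with HRG, by 0.10 at 12 h (7872 and 7941 CPM with vehicle against 7568 and 7519 CPM) and by 0.20 at 24 h (6849 and 7107 CPM against 5994 and 6306 CPM) on the log2 scale. With EGF in BT474 it changed by 0.01 at 12 h, which did not pass, and fell by 0.09 at 24 h. In BT474R no change of ERBB2 passed, although without the second HRG library at 24 h its change with HRG was -0.19 and did. At 12 h with EGF its BT474R libraries, 10206 and 10546 CPM, lay above vehicle at 9665 and 9437 CPM, a log2 change of 0.12 (95% interval 0.02 to 0.21) with an edgeR adjusted p of 0.102.

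EGFR, the receptor of EGF, rose in HRG-BT474 at 12 h, from 92.9 and 89.6 CPM with vehicle to 123 and 117 CPM (log2 0.36, SE 0.0633, edgeR adjusted p = 2.05e-05). It did not pass in the other 11 comparisons of ligand with vehicle, and its libraries overlapped vehicle in all 11. Without the first EGF library at 24 h the BT474 change with EGF was 0.21 and passed. In BT474R, where EGFR was highest, its changes with ligand ran from 0.01 to 0.10 on the log2 scale, and their 95% intervals lay between -0.19 and 0.30.

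In all, at 12 h 2 of 4 members passed with EGF and 4 of 4 with HRG in BT474, among 16% and 25.8% of all genes, and 1 of 4 with either ligand in BT474R, among 12% and 4.12%. At 24 h 3 of 4 passed with EGF and 3 of 4 with HRG in BT474, among 16.4% and 24.1%, and again only ERBB4 passed in BT474R, among 17.3% with EGF and 2.78% with HRG. Of these 16 calls 15 were decreases. Some of the small BT474 calls rested on 1 library. Without the second vehicle library at 24 h, the EGF changes of ERBB2 and ERBB3 were -0.07 and -0.08 and did not pass. Without the second EGF library at 24 h, that of ERBB3 was -0.11 and did not pass. Without the first HRG library or the second vehicle library at 12 h, the HRG change of ERBB2 was -0.08 and did not pass.

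**Figure D2:**
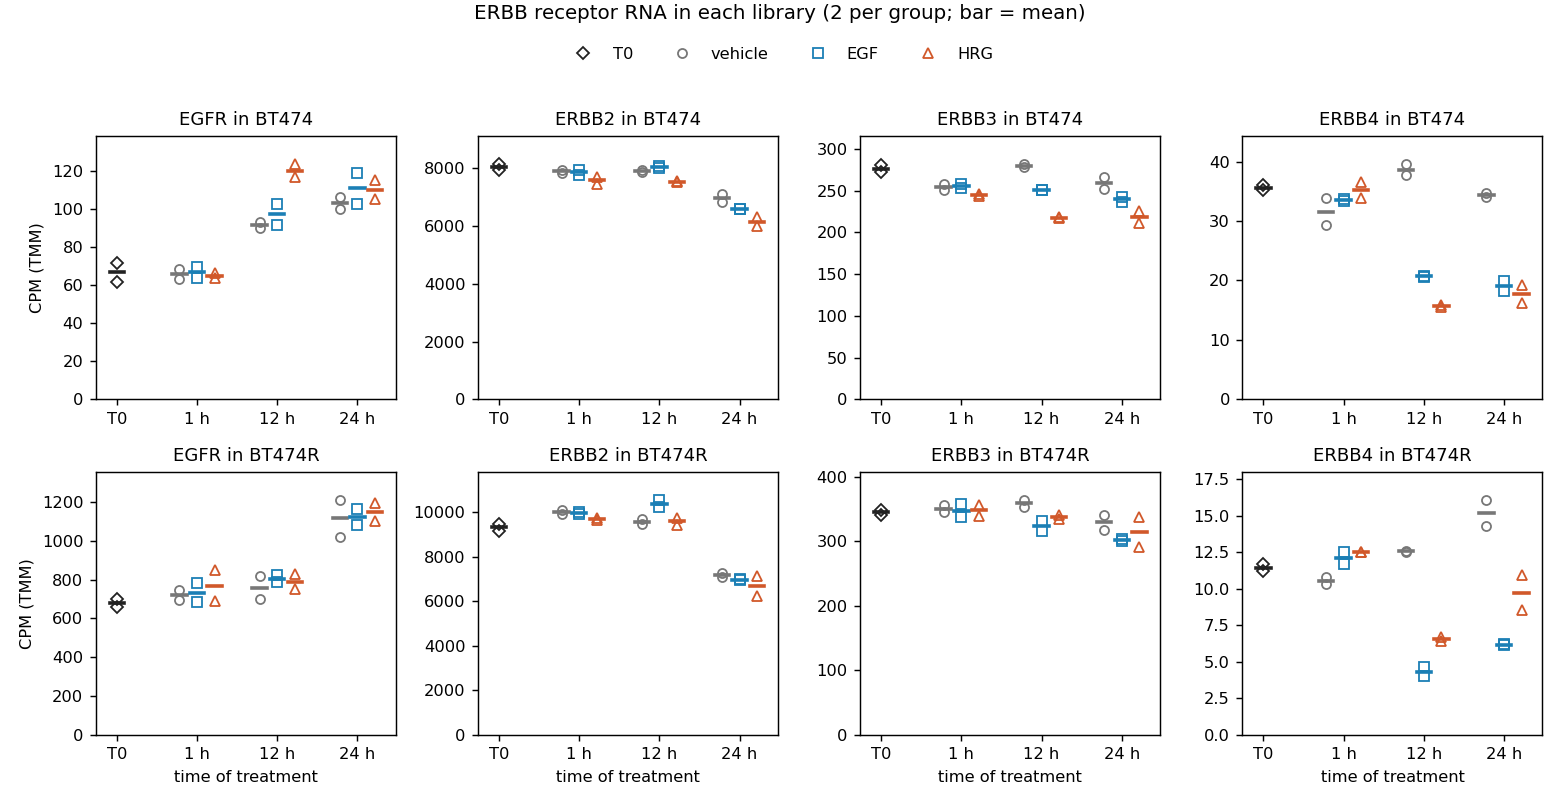
CPM of each receptor in all 40 libraries by time, BT474 in the upper row and BT474R in the lower row. Symbols show T0, vehicle, EGF and HRG, horizontal bars the mean of 2 libraries, and every axis starts at 0. ERBB4 falls below vehicle with both ligands at 12 h and 24 h, EGFR is highest at 24 h in BT474R, and ERBB2 is lower at 24 h than at earlier times.

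**Figure D3:**
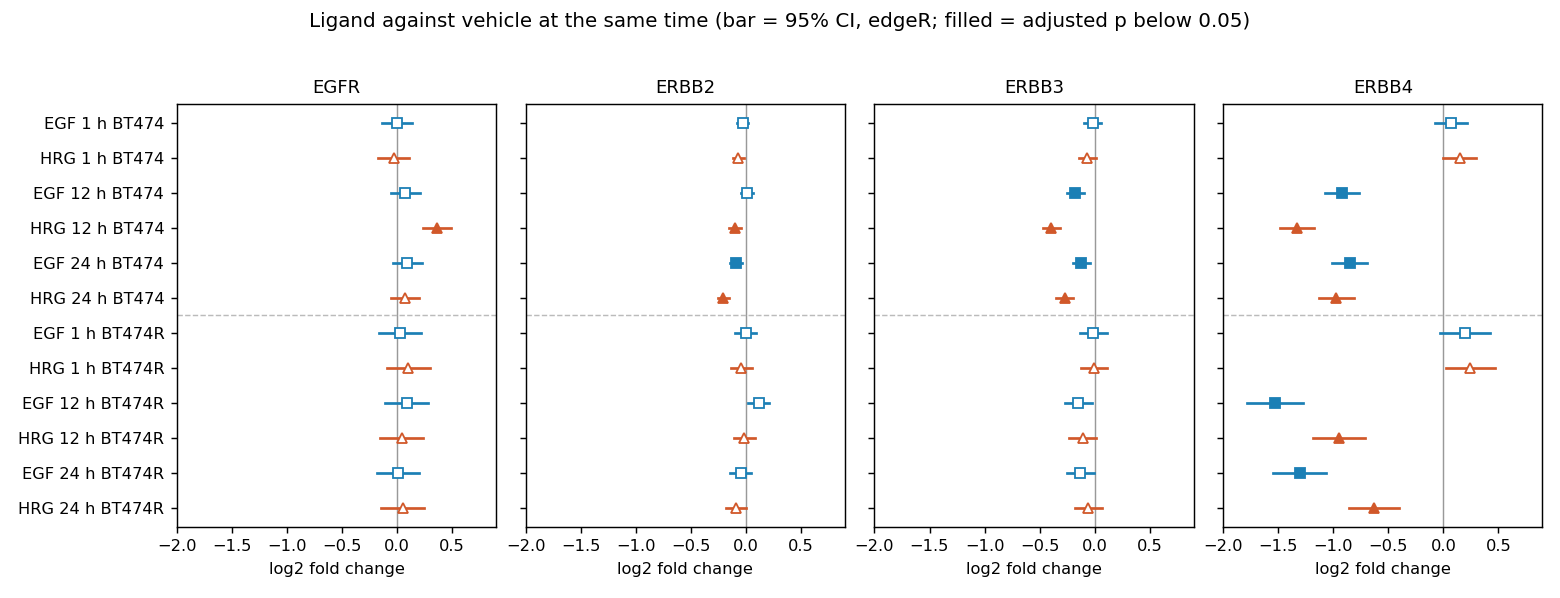
Log2 fold change of ligand against vehicle for each receptor, line and time, with 95% intervals from edgeR. Squares are EGF, triangles HRG, and filled symbols have an adjusted p below 0.05. In BT474R only ERBB4 is filled, at -1.53 and -1.30 for EGF and at -0.95 and -0.63 for HRG.

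The direct comparison of the ligands gave the difference in ERBB4 between the lines. At 12 h HRG against EGF was -0.41 for ERBB4 in BT474 (SE 0.0859, edgeR adjusted p = 0.00397) and 0.58 in BT474R (SE 0.132, edgeR adjusted p = 0.0225) on the log2 scale. At 24 h it was -0.12 in BT474, which did not pass, and 0.67 in BT474R (SE 0.122, edgeR adjusted p = 0.00106). The difference of these values between the lines, tested after they had been seen, was 0.99 at 12 h (SE 0.156, edgeR adjusted p = 7.28e-05) and 0.76 at 24 h (SE 0.145, edgeR adjusted p = 0.000589). ERBB3 differed too at 12 h, with HRG against EGF at -0.22 in BT474 and 0.04 in BT474R, a difference of 0.26 (edgeR adjusted p = 0.0347). In these tests of the difference 0, 2 and 1 of 4 members passed at 1, 12 and 24 h, among 0.138%, 2.33% and 4.82% of all genes, and for 1 h no member had an unadjusted p under 0.05 and DESeq2 called 0.

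The other calls of HRG against EGF were in BT474. EGFR was 0.29 higher at 12 h, ERBB2 fell by 0.11 at 12 h and 0.12 at 24 h, and ERBB3 fell by 0.22 at 12 h and 0.15 at 24 h with HRG relative to EGF. Thus in BT474 0, 4 and 2 of 4 members passed at 1, 12 and 24 h, among 0.139%, 2.17% and 0.768% of all genes. In BT474R 0, 1 and 1 of 4 passed, among 0.0494%, 1.42% and 5.18%. Among the 8 tests at 1 h no unadjusted p was under 0.05 and DESeq2 called 0. The small values did not pass under every setting: in 1 fit of both lines the changes of EGFR and ERBB2 at 12 h and of ERBB2 and ERBB3 at 24 h were lost, and ERBB4 in BT474R lost its call at both times when only the 2 groups were fitted.

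The effect of EGF on ERBB4 was larger in BT474R than in BT474. The difference between the lines was -0.63 on the log2 scale at 12 h (SE 0.145, edgeR adjusted p = 0.0104). At 24 h it was -0.46 (SE 0.137, edgeR adjusted p = 0.048). That 24 h call was lost with DESeq2, with its size factors, with no filter, with only the groups compared and with the replicate block. The effect of HRG on ERBB3 was smaller in BT474R at 12 h, with a difference of 0.27 (SE 0.0701, edgeR adjusted p = 0.0176). For HRG on ERBB4 the difference of 0.37 at 12 h (95% interval 0.09 to 0.64) did not pass, nor did that for HRG on EGFR of -0.34 (95% interval -0.59 to -0.08). With EGF 0, 1 and 1 of 4 members differed between lines at 1, 12 and 24 h, among 0.138%, 1.96% and 4.01% of all genes, and with HRG 0, 1 and 0, among 0.544%, 4.07% and 3.33%. Of the 8 tests at 1 h none had an unadjusted p under 0.05 and DESeq2 called 0, and with HRG at 24 h 2 of 4 had one and DESeq2 called 0.

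Between times the ligand effect changed from 1 h to 12 h. No further change to 24 h passed in the filtered fit of 20 libraries per line without a replicate block. For ERBB4 the log2 effect changed by -0.99 in EGF-BT474, -1.48 in HRG-BT474, -1.73 in EGF-BT474R and -1.19 in HRG-BT474R, and all 4 passed. With HRG in BT474, EGFR (0.39) and ERBB3 (-0.33) passed as well. The calls were 1 of 4 members with EGF and 3 of 4 with HRG in BT474, among 7.72% and 14.2% of all genes, and 1 of 4 with either ligand in BT474R, among 4.43% and 0.992%. From 12 h to 24 h none of 16 tests passed, among 0.517% of genes with EGF and 2.5% with HRG in BT474 and 0.185% with EGF and 0.0288% with HRG in BT474R. For these 16 tests 6 had an unadjusted p under 0.05 and DESeq2 called 0. At 24 h in BT474 same-numbered libraries deviated together in all 3 pairs of groups, and with a replicate block within each time 4 of the tests from 12 h to 24 h in BT474 passed, ERBB2 with EGF (-0.10) and EGFR (-0.29), ERBB2 (-0.11) and ERBB4 (0.35) with HRG. With no filter on low counts EGFR (-0.29) and ERBB2 (-0.10) with HRG in BT474 and ERBB2 with EGF in BT474R (-0.19) passed. EGFR with HRG in BT474 also passed when only the groups compared were fitted.

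The ligand effects can also be read as ratios of receptors. At 12 h in BT474, ERBB3 to ERBB4 per kb was 15.2 and 16.1 with vehicle, 25.9 and 26.3 with EGF and 29.4 and 30.2 with HRG. In BT474R it was 60.8 and 62.4 with vehicle, 147 and 178 with EGF and 109 and 112 with HRG. EGFR to ERBB4 at 12 h was highest in EGF-BT474R, at 218 and 239, against 68.0 and 79.4 with vehicle. Averaged over all 3 times, however, none of the 24 tests of a ratio with ligand passed after adjustment over 30 tests (exact permutation test within each time, two-sided). The lowest p was 0.0185 for EGFR to ERBB2 and EGFR to ERBB3 with HRG in BT474 (adjusted p = 0.0694), 8 of 24 had an unadjusted p under 0.05, and 216 permutations cannot give less than 0.00926. In all 12 tests of a ratio to ERBB4 that average held 1 time, 1 h, whose sign was opposite.

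Over the 10 groups of a line, EGFR varied from 61.8 to 123 CPM in BT474 and from 658 to 1212 CPM in BT474R over single libraries. ERBB2 ran from 5994 to 8140 CPM and from 6231 to 10546 CPM, and ERBB3 from 211 to 282 CPM and from 291 to 364 CPM. ERBB4 had the widest range within a line, from 15.6 to 39.5 CPM in BT474 and from 4.02 to 16.1 CPM in BT474R, a ratio of highest to lowest of 2.54 and 4.01. When the 20 groups were ordered by mean CPM, 16 of 19 neighbouring pairs overlapped for EGFR, 12 for ERBB2, 12 for ERBB3 and 8 for ERBB4. For EGFR the 3 gaps stood between the 24 h groups and the other groups of BT474R, between the lines, and between the later groups and the 1 h and T0 groups of BT474. For ERBB3 and EGFR the 10 BT474R groups were the 10 highest, while for ERBB2 the 24 h groups of BT474R fell among those of BT474. For ERBB4 the lowest group was EGF-BT474R at 12 h, with 4.33 CPM, and the highest vehicle BT474 at 12 h, with 38.7 CPM.

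The next values describe the 10 group means of a line, over which time and treatment both vary and no vehicle is subtracted. ERBB3 and ERBB4 moved together (Pearson r = 0.86 in BT474 and 0.55 in BT474R) and EGFR and ERBB2 moved in opposite directions (r = -0.60 and -0.94). In BT474R every 24 h library, with vehicle or ligand, had more EGFR and less ERBB2 than every earlier library. The r of EGFR and ERBB2 in that line therefore includes this change with time. In the same order of lines, r was 0.61 and 0.75 for ERBB2 and ERBB3 and -0.55 and -0.83 for EGFR and ERBB3. It was -0.75 and -0.11 for EGFR and ERBB4 and 0.51 and -0.09 for ERBB2 and ERBB4. The genes most like each member were those with the highest Pearson r in the line where it was lower, among 13082 genes, over 10 group means per line. For ERBB4 they were HDAC5, a histone deacetylase (r = 0.98 in BT474 and 0.98 in BT474R), PPM1H, NDST4, TMEM116 and TESK2, and the most opposite were SRCIN1 and ACER3. For EGFR they were SCD, a fatty acid desaturase (r = 0.96 and 0.98), C11orf80, SLC25A1, a mitochondrial citrate carrier, LNPK and BNIP3, and the most opposite were TARS2 and ANAPC5. For ERBB2 they were FAM83E (r = 0.97 and 0.99), LRRC41, URM1, DBN1 and PRMT6, and the most opposite MIR924HG and LOC107984316. For ERBB3 they were APMAP (r = 0.95 and 0.96), TMEM254, PSD4, ALDH9A1 and THNSL2, and the most opposite were CENPK, a kinetochore protein, and TRIP13, a mitotic checkpoint ATPase.

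The 9 lists of genes that act around the receptors were counted in the same fits, each by how many of its tested genes rose or fell, beside the share of all genes given above. Among 10 tested ligands of the family, none was higher in BT474R at T0 and 4 were lower, with a list median of -1.11 on the log2 scale. Of all genes 46.9% passed in that comparison. That median lies between the values of EREG and NRG4, which did not pass and had few reads. In BT474 and BT474R, EREG averaged 0.08 and 0.02 CPM and NRG4 0.21 and 0.14 CPM. EPGN, 1 of the 4 that were lower, averaged 0.21 and 0.02 CPM. AREG (amphiregulin, a ligand of EGFR) averaged 3.47 CPM in BT474 and 0.50 CPM in BT474R, and BTC (betacellulin) 2.58 and 0.67 CPM. In HRG-BT474 the log2 rise of AREG was 3.04 after 1 h, 2.81 after 12 h, and in EGF-BT474 it was 2.27 after 1 h, 1.94 after 12 h and 2.16 after 24 h. In BT474R it rose with EGF by 2.82 at 12 h and 2.76 at 24 h, from means of 0.467 and 0.57 CPM. With HRG in BT474R 0, 1 and 0 of 9 tested ligands passed at 1, 12 and 24 h. The shares of all genes were 0.169%, 4.12% and 2.78%. At 1 h and 24 h 2 and 1 of the ligands had an unadjusted p under 0.05 and DESeq2 called 0.

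Of 16 tested feedback inhibitors, which dampen receptor signaling, 3 rose at 1 h with each ligand in each line. These were DUSP6, a phosphatase of ERK, SPRY4, a Sprouty inhibitor of RAS signaling, and ERRFI1, which binds and inhibits the kinases of the family. The log2 rise of DUSP6 at the 3 times was 0.69, 1.66 and 1.95 in EGF-BT474, 0.70, 1.75 and 1.94 in HRG-BT474, 0.96, 2.44 and 3.14 in EGF-BT474R and 0.75, 1.65 and 1.09 in HRG-BT474R. Of the 16, 9 rose and 2 fell at 12 h with EGF in BT474, 10 rose and 1 fell with HRG in BT474, 6 rose and 1 fell with EGF in BT474R, and HRG raised 4 and lowered 1 in that line. The shares of all genes that passed were 16%, 25.8%, 12% and 4.12% in the same order, and 0.169% to 2.77% at 1 h.

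Among the 26 tested adaptors and kinases near the receptors, 7 rose and 8 fell with HRG at 12 h in BT474, and 3 rose and 3 fell with EGF. In BT474R 4 rose and 3 fell after EGF for 12 h, and 1 rose and 2 fell after HRG. GRB10, an adaptor that restrains receptor signaling, fell in 7 of the 8 comparisons at 12 h and 24 h in which a ligand was compared with vehicle, by 0.26 to 0.63 on the log2 scale. Of the 18 ubiquitin ligases, deubiquitinases and chaperones, 10 rose and 2 fell with HRG at 12 h in BT474. The chaperone gene HSPA8 rose by 0.38 and SH3KBP1, which helps CBL take EGFR into the cell, by 0.45, while CBLB, a ubiquitin ligase for EGFR, fell by 0.50. In BT474R 1 of 18 rose with either ligand at 12 h. Of all genes at 12 h, 16% passed with EGF and 25.8% with HRG in BT474, and 12% and 4.12% in BT474R.

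Of the 24 tested genes of endocytosis and sorting, 9 rose and 1 fell with HRG and 4 rose and 1 fell with EGF at 12 h in BT474, and 1 rose with HRG and 5 with EGF in BT474R. SORL1, a sorting receptor, had 12 h log2 rises of 0.60 in HRG-BT474, 0.47 in EGF-BT474, 0.43 in HRG-BT474R and 0.42 in EGF-BT474R. Of the 10 sheddases, proteases that release ligands and receptor fragments, 2 rose and 4 fell with HRG at 12 h in BT474. ADAM10 rose by 0.16, while ADAM17 and NCSTN, a subunit of the gamma-secretase that cleaves ERBB4, fell by 0.21 and 0.26. At 12 h 25.8% of all genes passed with HRG and 16% with EGF in BT474, and 4.12% and 12% in BT474R.

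Of the 20 factors reported at ERBB promoters, 4 rose and 9 fell with HRG and 4 rose and 7 fell with EGF at 12 h in BT474, and 1 rose and 3 fell with HRG and 2 rose and 7 fell with EGF in BT474R. Shares of all genes that passed were 25.8%, 16%, 4.12% and 12% in the same order. The 12 h log2 change of ESR1, the estrogen receptor, was -0.51 in EGF-BT474, -0.86 in HRG-BT474, -1.25 in EGF-BT474R and -0.94 in HRG-BT474R. That of GATA3 was -1.78 in EGF-BT474R and -1.03 in HRG-BT474R. EGR1, an immediate early factor, had 1 h log2 changes of 3.75 in EGF-BT474, 4.04 in HRG-BT474, 3.77 in EGF-BT474R and 3.03 in HRG-BT474R. At T0 the log2 difference of BT474R to BT474 was -3.57 for GATA3, while TFAP2A was 0.54 higher and TFAP2C, another AP-2 factor, differed by 0.00 (SE 0.0524).

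Among 25 other receptor tyrosine kinases, 15 were higher and 6 lower in BT474R at T0, where 46.9% of all genes passed. FGFR3 was 3.45 and MST1R, the receptor of macrophage-stimulating protein, 2.96 higher on the log2 scale, while IGF1R fell by 1.52. The EGFR difference of 3.35 was therefore within the range of this list. The 12 h log2 rise of EPHA2, an ephrin receptor, was 0.97 in EGF-BT474, 1.30 in HRG-BT474, 1.91 in EGF-BT474R and 1.21 in HRG-BT474R, and that of MST1R was 0.99, 1.34, 0.72 and 0.45 in the same order.

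Of the 10 neighbours of ERBB2 at 17q12, 7 were higher and 3 lower in BT474R at T0, with a list median of 0.50, against 0.21 for ERBB2. The share of all genes that passed at T0 was 46.9%. GRB7, an adaptor whose gene lies beside ERBB2, was 0.49 higher, STARD3 0.53 higher and PGAP3 fell by 0.53. With EGF in BT474R, GRB7 rose by 0.48 at 12 h and 0.38 at 24 h and PNMT by 0.81 and 0.74, while ERBB2 changed by 0.12 and -0.05 and did not pass.

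**Figure D4:**
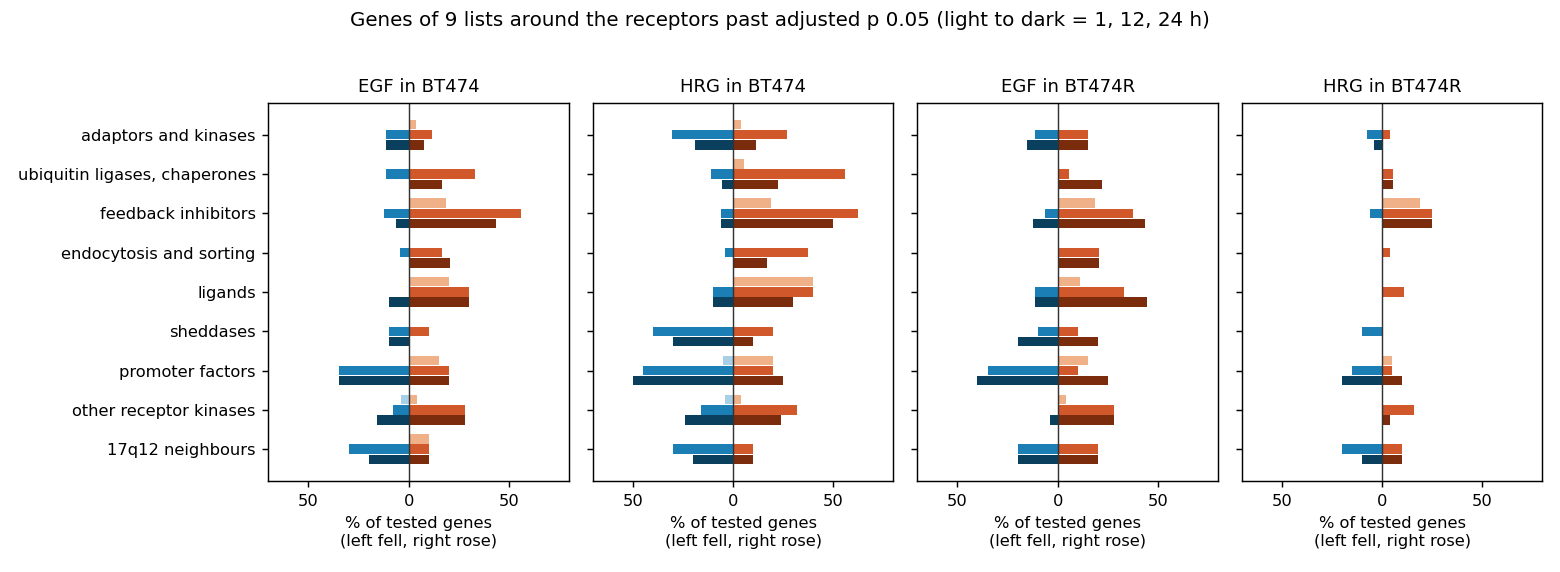
Share of the tested genes of 9 lists that rose (right) or fell (left) against vehicle with an edgeR adjusted p below 0.05, for each ligand and line. Light to dark bars are 1 h, 12 h and 24 h. Feedback inhibitors rise at 1 h in all 4 panels, 3 of 16 in each, and the panel of HRG in BT474R holds the fewest calls at 12 h and 24 h.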

How the data were processed

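RNA-seq libraries of BT474 and BT474R were made by the authors with a poly(A) mRNA kit, trimmed with Trim Galore 0.6.6, aligned to GRCh38.p13 with Rsubread and counted per gene with featureCounts, and the raw counts were deposited as 1 table of 40 libraries. The annotation release and the strand and multi-mapping settings are not given in the sources used here. Groups were taken from the labels, 2 libraries in each of 20 groups.

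Genes that had a count of 1 or more in 50% or more of a fit's libraries were kept, scaled by TMM and tested with edgeR 4.0.16 (limma 3.58.1, R 4.3.3) by the quasi-likelihood test, with Benjamini-Hochberg adjustment over all genes and a threshold of 0.05. Ligand, ligand order and vehicle comparisons used 1 fit of 20 libraries per line, and comparisons between lines 1 fit of 40. Errors are standard errors of the log2 fold change, and intervals are at 95%. Levels are CPM on 1 TMM scale, except those of the cell type markers, which are CPM of the raw library totals. Ratios of receptors were taken per kb, and with 0.5 counts added for the tests, which were exact permutation tests within each time, two-sided, adjusted over 30 tests. The scripts were tested on simulated data.

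Alternatives were DESeq2 1.42.0, its size factors, other filters, thinning to equal depth, only the groups compared, 1 fit of both lines, the replicate number as a block and leaving out each library. The replicate numbers were not taken to pair the libraries over the whole series, since the correlation of same-numbered deviations was above 0.1 in only 8 of 45 pairs of groups in BT474 and 13 of 45 in BT474R. At 24 h it was above 0.1 in 3 of 3 pairs in BT474 (0.149 to 0.302) and in 2 of 3 in BT474R (0.265 and 0.423). The members and lists were chosen with earlier results of these data known, and the test of the ligand order between the lines was added after its values had been seen. From each list, at most 3 called genes per direction with the largest change and a mean of at least 1 CPM could be named for a comparison with ligand, and further list genes were chosen after their values were seen.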

Additional observations from a re-analysis of the deposited data

Results flagged for a closer look

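Effects that differed between the lines, between times or between the ligands are given here. Each passed edgeR's test of the difference itself at an adjusted p below 0.05, and all values are log2 differences.

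Between the lines, the EGF effect on ERBB4 in BT474R minus that in BT474 was -0.63 at 12 h and -0.46 at 24 h, and the same difference for the HRG effect on ERBB3 was 0.27 at 12 h. The call of -0.46 was lost under several of the alternatives given below. HRG against EGF was higher in BT474R than in BT474 by 0.99 at 12 h and 0.76 at 24 h for ERBB4 and by 0.26 at 12 h for ERBB3. These last 3 values come from a test added after the data had been seen.

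Between 1 h and 12 h, the ERBB4 effect changed by -0.99 in EGF-BT474, by -1.73 in EGF-BT474R, by -1.48 in HRG-BT474 and by -1.19 in HRG-BT474R. In HRG-BT474 the EGFR effect changed by 0.39 and the ERBB3 effect by -0.33 over the same interval.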

How the results depend on the processing

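Of 2279 values of members and ratios recomputed under the alternatives, 2213 kept their side of the threshold, 32 were no longer called, 34 became called and none of the called values reversed. Among those that kept their side, 81 values of single members that did not pass changed sign. The ERBB4 decreases at 12 h and 24 h, other than that in HRG-BT474R at 24 h, the T0 differences of all 4 members and the 6 ratios between the lines kept their calls under every alternative run. The T0 differences of ERBB2, ERBB3 and ERBB4 without 1 library did not span the value with all libraries (for ERBB2 0.16 to 0.20 against 0.21). The causes of these changes were not tested. With 2 libraries a group, leaving out 1 assumes that the lone library varies like the others, and the fewest counts behind a level were 86, for ERBB4.

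In 1 fit of both lines, calls were lost for HRG against EGF in BT474 (EGFR 0.30 and ERBB2 -0.094 at 12 h, ERBB2 -0.10 and ERBB3 -0.14 at 24 h), for EGF-BT474 at 24 h (ERBB2 -0.082, ERBB3 -0.11) and for ERBB2 in HRG-BT474 at 12 h (-0.068), and gained in EGF-BT474R at 12 h (ERBB2 0.12, ERBB3 -0.15). The line difference in the EGF effect on ERBB4 at 24 h was lost with DESeq2 (-0.44), DESeq2 size factors (-0.44), no filter (-0.45) and only the groups compared (-0.44). For HRG against EGF in BT474 at 24 h, ERBB3 was lost with DESeq2 size factors (-0.14), filterByExpr (-0.14) and thinning (-0.15), and ERBB2 with filterByExpr (-0.11). Thinning also lost ERBB3 in EGF-BT474 at 24 h (-0.10) and ERBB4 in BT474R vehicle at 24 h against T0 (0.37).

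With no filter, calls were gained for ERBB2 in BT474R (HRG against EGF at 12 h -0.12, EGF at 12 h 0.14, HRG at 24 h -0.11, EGF effect from 12 h to 24 h -0.19), for EGFR between lines at 12 h (HRG effect -0.33, HRG against EGF -0.34), for the HRG effect from 12 h to 24 h in BT474 (EGFR -0.29, ERBB2 -0.10) and for EGFR in BT474R vehicle at 12 h against T0 (0.18). With only the groups compared, calls were lost for HRG against EGF (ERBB4 0.59 at 12 h and 0.66 at 24 h in BT474R, ERBB2 -0.10 and ERBB3 -0.14 at 24 h in BT474), for EGF-BT474 at 24 h (ERBB2 -0.095, ERBB3 -0.13), for ERBB4 in HRG-BT474R at 24 h (-0.65) and for the line difference in ligand order of ERBB4 at 24 h (0.76). Gained were ERBB2 0.11 and ERBB3 -0.15 in EGF-BT474R at 12 h, EGFR between lines at 12 h (HRG effect -0.33, HRG against EGF -0.33), the effect from 1 h to 12 h of EGF on ERBB3 in BT474 (-0.15) and ERBB2 in BT474R (0.12), that from 12 h to 24 h of HRG on EGFR in BT474 (-0.30), and vehicle against T0 for ERBB3 at 1 h in BT474 (-0.11), ERBB2 at 1 h in BT474R (0.10) and EGFR at 12 h in BT474R (0.16).

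The replicate numbers paired the libraries over the series in neither line, but same-numbered libraries at 24 h in BT474 correlated in all 3 pairs of groups. With the replicate block, the line difference in the EGF effect on ERBB4 at 24 h was lost (-0.45), and ERBB3 from 1 h to 12 h of EGF (-0.16) and ERBB2 from 12 h to 24 h of HRG (-0.11) were gained in BT474. With a replicate block within each time, gained in BT474 were ERBB2 with HRG at 1 h (-0.068), ERBB3 from 1 h to 12 h of EGF (-0.16), ERBB2 from 12 h to 24 h of EGF (-0.10) and, for HRG over that interval, EGFR (-0.29), ERBB2 (-0.11) and ERBB4 (0.35). The block changed no other call of a member or ratio. With it within each time, the count of all called genes for HRG against EGF at 24 h in BT474 went from 193 to 429, and that for the EGF effect from 12 h to 24 h in BT474 from 130 to 238.

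Leaving out 1 library at a time changed calls in these ranges: EGF-BT474 at 24 h from -0.027 to 0.21 for EGFR, -0.12 to -0.069 for ERBB2 and -0.17 to -0.084 for ERBB3, HRG-BT474 at 12 h from -0.11 to -0.083 for ERBB2, HRG-BT474R at 24 h from -0.19 to -0.017 for ERBB2 and -0.85 to -0.46 for ERBB4, and the ratios EGFR to ERBB3 from 0.35 to 0.41 in HRG-BT474 and 0.11 to 0.17 in EGF-BT474R and ERBB2 to ERBB3 from 0.11 to 0.13 in EGF-BT474R.

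Counts of all called genes moved by over 1.5 times in 71 cases, 28 of them with only the groups compared. For HRG-BT474R at 1 h, 12 h and then 24 h, the counts were 41, 1000 and 675, against 68, 1606 and 1137 in 1 fit of both lines, 151, 1577 and 1147 with no filter, and 121, 566 and 0 with only the groups compared. For that 0, from edgeR, 1181 genes had an unadjusted p under 0.05, and DESeq2 called 725 in the 20 libraries. For EGF-BT474R they were 111 at 1 h (226 with no filter, 279 with only the groups compared) and 2910 at 12 h (5176 with only the groups compared), and for EGF-BT474 at 1 h 550 (240 with only the groups compared).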
